A study of Homo sapiens with 2 samples.

Results

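The genes described here are the lactate transporters SLC16A1, SLC16A3 and SLC16A7, their relative SLC16A6, the chaperones BSG and EMB, and the lactate dehydrogenases LDHA and LDHB. They are 8 of 50464 gene symbols in a deposited RNA sequencing table. The cells were KASUMI-1, an established line from a human acute myeloid leukaemia in which RUNX1 is fused to RUNX1T1. The set was taken by gene name, but it was chosen by a measured value as well, since the FPKM ratio of SLC16A1 was already known to be among the lowest in these libraries. Every ratio below is therefore a description, and none was tested.

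Both groups received a lentivirus. One is labelled pccl and is treated as the control, and the other is labelled USP6, after the deubiquitinase of that name. The words pccl and USP6 alone stand for these libraries in what follows. The series title concerns the stabilisation of RUNX1 fusion proteins by USP6. Each group is 1 library from 1 cell line, and the differences have no replicates behind them. The time after infection, any selection of infected cells and the promoter of the construct are not given in the labels.

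Cells that rely on glycolysis turn pyruvate into lactate and must export it together with a proton. Lactate dehydrogenase is a tetramer of subunits from LDHA, which favours the making of lactate, and LDHB, which favours its oxidation back to pyruvate. These lactate carriers need a single-pass chaperone to reach the cell surface. Basigin (BSG, also CD147) serves the proteins of SLC16A1 and SLC16A3, and embigin (EMB) serves that of SLC16A7 in particular. The protein of SLC16A1 is the widespread carrier, that of SLC16A3 is typical of highly glycolytic cells, and that of SLC16A7 has a high affinity for pyruvate and lactate. SLC16A6 encodes a relative reported to carry ketone bodies.

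The pccl library held 12306442 counts and the USP6 library 12518795, of which the mitochondrial genome took 49.9% and 45.6%. The other counts, 6170625 and 6804323, measure the nuclear genes. The cell line was checked against 8 myeloblast genes, and all 8 were expressed, taken as at least 1 FPKM in the higher library. Of markers of other cells, 0 of 8 erythroid, 4 of 6 T cell, 2 of 4 B cell and 1 of 8 stromal and epithelial genes were expressed. Summed over its list, the T cell level was 38.7 FPKM in the pccl and 46.9 in the USP6 library, the B cell level 3.13 and 12.6, and the erythroid level 0.0796 and 0.134. The stromal and epithelial sum was 17.4 and 8.80 FPKM, nearly all from EPCAM, with 5 of its 8 genes at 0 counts in both libraries. Some markers differed between the libraries by a log2 ratio of FPKM + 1 beyond -1 or 1. Of the myeloblast genes, CD34 (log2 ratio -1.39) and KIT (-1.29) were lower with USP6, and MPO (2.11) and SPI1 (1.29) were higher. Of the T cell genes CD2 (1.83) and CD3E (1.5) were higher, as were both expressed B cell genes, CD79A (1.68) and CD79B (1.08). Centred on the trend of all genes with GC content, SPI1 was at 0.52 and CD79B at 0.55. The largest part of the T cell sum was CD3D, with 27.8 and 22.6 FPKM, followed by CD4, with 9.57 and 16.7 FPKM. The part of these markers in the results was not tested. In a bulk library, fewer cells of a type and less RNA per cell cannot be told apart.

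Most of the lactate genes had a lower level in the USP6 library, led by the main transporter and the lactate-making enzyme, and BSG alone among the expressed ones was higher. Of the 8 genes, 6 were expressed. The size of a difference is log2((USP6 + 1)/(pccl + 1)) of FPKM (fragments scaled to gene length and sequencing depth), with limits at -1 and 1, that is 2-fold on this scale, which understates differences of low genes. Past these limits were 4 of the 6 on the lower side, where 11.4% of all 10153 expressed genes lay, and 0 of the 6 on the higher side, against 13.7% of all. With a limit of 1.5-fold, 5 were lower and 1 higher, against 24.3% and 27.7% of all expressed genes. The median log2 ratio of the 6 was -1.53, beside 0.06 over all expressed genes. Since the set was built around a gene with a low ratio, nothing is read from these counts about the set.

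**Figure D1:**
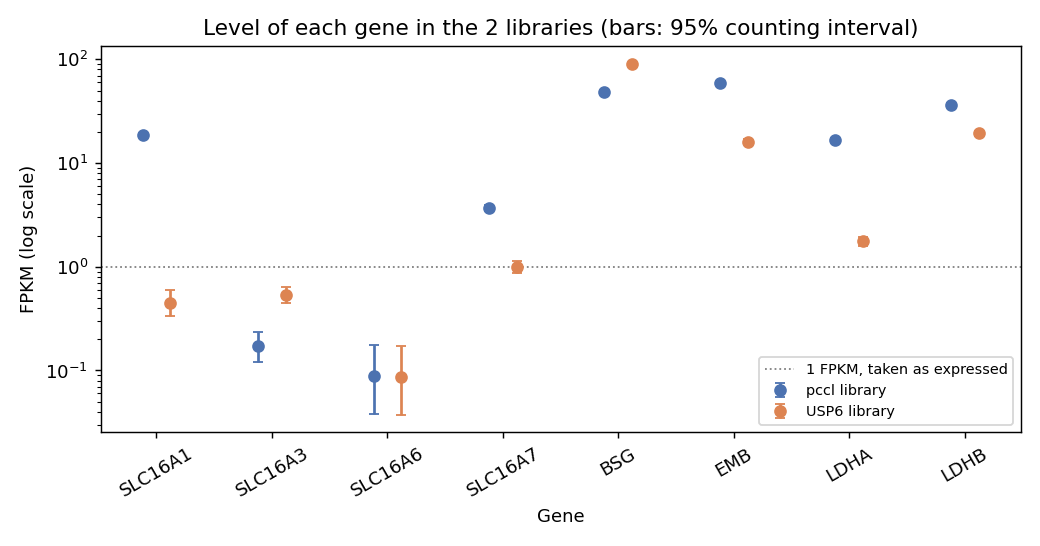
FPKM (log axis) of the 8 genes in the pccl and the USP6 library, 1 point per library, with bars for the 95% counting interval and a dotted line at 1 FPKM. SLC16A1 went from 18.8 FPKM in the pccl library to 0.452 in the USP6 library, while BSG went from 48.9 to 89.7.

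Among the transporters, SLC16A1 was the most abundant message with pccl, with each gene length used, and was not with USP6. SLC16A1 (ENSG00000155380, chromosome 1 from 112911847 to 112957013, minus strand) had 2122 counts with pccl and 52 with USP6, which is 18.8 and 0.452 FPKM. That is 41.5-fold lower, with a 95% Clopper-Pearson interval from the counts of 31.5 to 55.8. Such intervals cover counting error alone, and no differences between cultures. Its log2 ratio of -3.77 was number 7 from the lowest of the 10153 expressed genes.

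The antisense gene SLC16A1-AS1 was not lower. It starts within SLC16A1 on the opposite strand, and the loci overlap over 599 bases, from 112956415 to 112957013. In GENCODE release 29 their exons share 175 bases, 3.29% of the exon bases of SLC16A1. SLC16A1-AS1 had 130 counts (0.824 FPKM) with pccl and 164 (1.02 FPKM) with USP6, a ratio of 1.24 (0.979 to 1.57). Whether the counting used strand is not given in the sources used here, so reads of the shared bases could have gone to either gene. All 130 counts of the antisense gene with pccl are few beside the 2122 of SLC16A1, while its 164 with USP6 exceed the 52 of SLC16A1. Another 6 loci overlap the genes of the set without sharing exon bases (AKR7A2P1, AC132872.3, AC132872.4, AC079905.2, AC084117.1 and AC010197.1), and they had 0 counts apart from 1 count of AC084117.1 with USP6.

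SLC16A7 was lower too. This gene (ENSG00000118596, chromosome 12 from 59596067 to 59789855) had 829 and 226 counts with pccl and USP6. Its level was 3.71 and 0.995 FPKM, 3.73-fold lower (3.22 to 4.34), and the log2 ratio was -1.24. This value lay closest to the limit among the 4 lower genes, and with a pseudocount of 5 FPKM it was -0.54, short of the limit.

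SLC16A3, the carrier of highly glycolytic cells, was low in both libraries and had more counts with USP6. There were 37 counts (0.172 FPKM) with pccl and 117 (0.535 FPKM) with USP6, 3.11-fold higher (2.13 to 4.63). Both levels lie under 1 FPKM, so it does not enter the counts above. Its log2 ratio was 0.39, and -0.27 when centred on the trend of all expressed genes with GC content. At these levels the pseudocount of 1 FPKM shrinks the ratio, which was 1.22 with a pseudocount of 0.1 FPKM and no centring. The sign after centring is therefore known for the pseudocount of 1 FPKM only, as centring was not run with a smaller one. The gene (ENSG00000141526) lies on chromosome 17 from 82228397 to 82261129. Over 22107 bases it overlaps CSNK1D, a kinase gene on the opposite strand with 623 and 655 counts. The exons of the pair share 482 bases, so some of the few SLC16A3 counts could be reads of CSNK1D.

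SLC16A6 was at the edge of detection. It had 8 counts in each library (0.0885 and 0.0870 FPKM), a ratio of 0.983 with an interval of 0.322 to 3.0. A difference within that interval was not detectable at this depth. SLC16A6 (ENSG00000108932, chromosome 17 from 68267026 to 68291267) lies wholly within the locus of ARSG on the opposite strand, which had 16 and 11 counts. Their exons share 144 bases, so some or all of the SLC16A6 counts could be reads of ARSG.

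The make-up of the transporter messages differed between the libraries. On the FPKM scale, SLC16A1 held 82.5% of the summed level of the 4 genes with pccl and 21.8% with USP6. The share of SLC16A7 was 16.3% and 48.1%, and that of SLC16A3 0.757% and 25.9%. The sum itself was 22.7 FPKM with pccl and 2.07 FPKM with USP6. The order within the USP6 library depended on the gene length used. Per kilobase of the longest transcript, SLC16A3 came first with 42.2% and SLC16A7 second with 33.4%. On the FPKM scale, the counting intervals of SLC16A1 (0.338 to 0.593) and SLC16A3 (0.443 to 0.642) overlapped in the USP6 library.

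The change in the balance of SLC16A1 to SLC16A3 does not depend on length, as a gene's length cancels between libraries. This ratio was 128-fold lower in the USP6 library (79.4 to 210). The ratio of SLC16A1 to SLC16A7 was 11.1-fold lower (8.10 to 15.5). Both values contain the SLC16A1 ratio by which the set was chosen, so they are descriptions only. The log2 ratio of SLC16A3 itself, with a pseudocount of 1 FPKM, changed sign on GC centring.

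**Figure D2:**
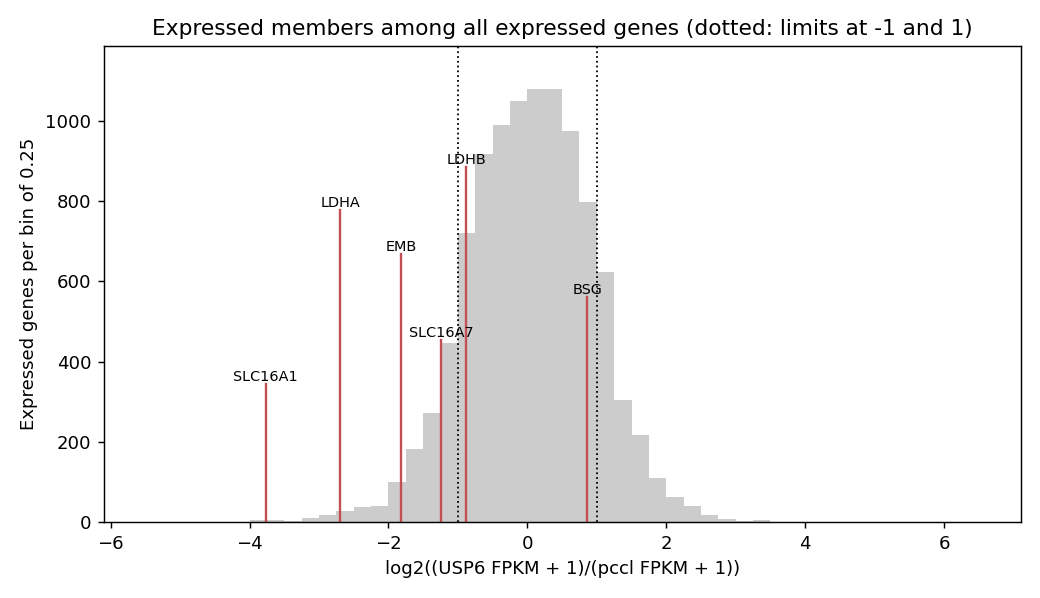
Histogram of log2((USP6 FPKM + 1)/(pccl FPKM + 1)) over the 10153 expressed genes, in bins of 0.25, with red lines at the 6 expressed genes of the set and dotted lines at -1 and 1. The height of a red line has no meaning. SLC16A1 (-3.77), LDHA (-2.69), EMB (-1.82) and SLC16A7 (-1.24) lie below the lower limit, and LDHB (-0.88) and BSG (0.86) lie within both limits.

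The chaperones differed in opposite directions, EMB past the limit and BSG short of it. BSG (ENSG00000172270, chromosome 19 from 571277 to 583493), the partner of SLC16A1 and SLC16A3, had 5867 counts with pccl and 10944 with USP6. These are 48.9 and 89.7 FPKM, 1.83-fold higher (1.78 to 1.89), with a log2 ratio of 0.86 that was 0.25 when centred on the GC trend. EMB (ENSG00000170571, chromosome 5 from 50396192 to 50443248), the partner of SLC16A7, had 6006 and 1655 counts. Its level of 59.5 FPKM with pccl and 16.1 with USP6 was 3.69-fold lower (3.50 to 3.90), with a log2 ratio of -1.82.

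The summed level of both chaperones was 108 FPKM with pccl and 106 with USP6, and BSG held 45.1% and 84.8% of it. Per kilobase of the longest transcript, with the same scaling to depth, the sums were 337 and 439, so whether the sum differed depends on the length used. The ratio of BSG to EMB was 6.77-fold higher in the USP6 library (6.35 to 7.21). Which of them was the more abundant in the pccl library cannot be said, since BSG to EMB was 0.823 in FPKM, 1.35 per kilobase of merged exons and 1.95 per kilobase of the longest transcript. In the USP6 library BSG exceeded EMB with each of these lengths, by 5.57 to 13.2 times.

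EMB has a close copy, the pseudogene EMBP1, with 151 counts with pccl and 37 with USP6, so reads could be shared between them. Beside BSG, the antisense gene AC009005.1 overlaps the first 952 bases of the locus and had 68 and 164 counts. Its exons share 140 bases with those of BSG, 3.69% of the exon bases of BSG.

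The lactate dehydrogenases were both lower, LDHA far more than LDHB. LDHA (ENSG00000134333, chromosome 11 from 18394388 to 18408425) had 3316 counts with pccl and 353 with USP6. This corresponds to 16.8 and 1.76 FPKM, 9.56-fold lower (8.56 to 10.7), with a log2 ratio of -2.69, number 53 from the lowest of the expressed genes. LDHB (ENSG00000111716, chromosome 12 from 21635342 to 21757857) had 1959 and 1056 counts, that is 36.5 and 19.3 FPKM. It was 1.89-fold lower (1.75 to 2.04), and its log2 ratio of -0.88 stayed short of the limit.

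The ratio of LDHA to LDHB was 5.06-fold lower in the USP6 library (4.43 to 5.80). Within the USP6 library LDHA was below LDHB with every length used, from 0.0911 in FPKM to 0.334 in counts. In the pccl library the order depended on length. LDHA to LDHB was 0.461 in FPKM, 0.813 per kilobase of merged exons, 1.08 per kilobase of the longest transcript and 1.69 in counts. The deposited FPKM divides LDHA by 16015 bases, the summed length of its 54 distinct annotated exons, although its longest transcript has 2416 bases. For LDHB the corresponding lengths are 4364 and 1538 bases. FPKM therefore understates LDHA more than LDHB, and levels of different genes are compared here only with this in view.

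**Figure D3:**
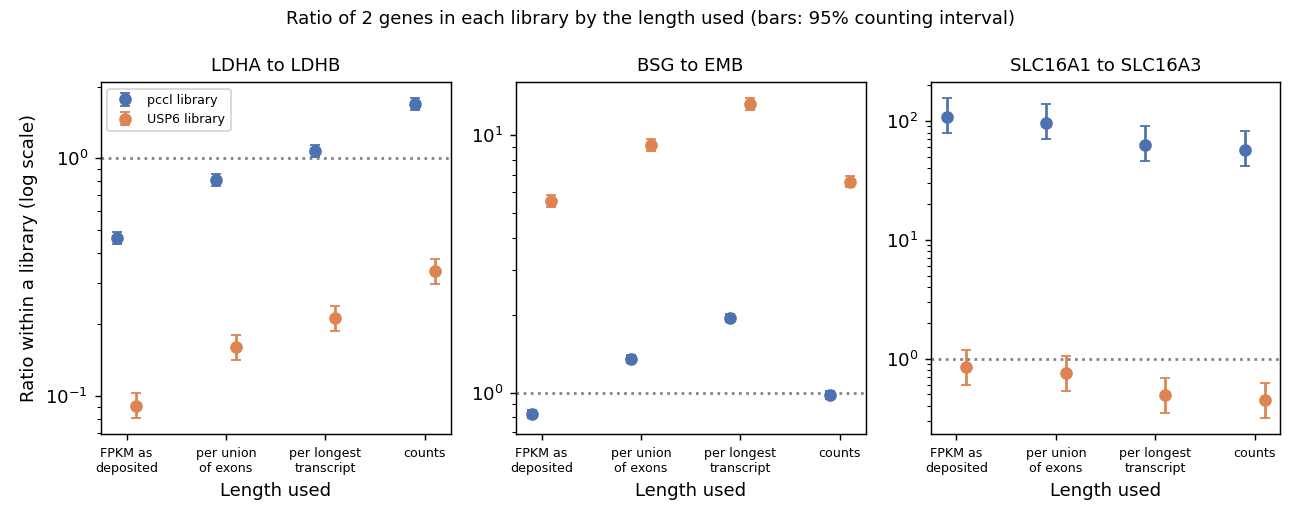
Ratio of LDHA to LDHB, of BSG to EMB and of SLC16A1 to SLC16A3 within each library (log axes), with 4 choices of gene length, a dotted line at 1 and bars for the 95% counting interval. The gap between libraries is the same with each length, while the level moves: LDHA to LDHB in the pccl library went from 0.461 in FPKM to 1.69 in counts.

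LDHA and SLC16A1 are textbook targets of MYC, which binds the E-box CACGTG, and LDHA, SLC16A3 and BSG are targets of the hypoxia-inducible factors, whose response element has the core ACGTG. The 250 bases before each RefSeq start site (GRCh38.p14) were searched for both on both strands. Entries matched 5 of the 8 genes (BSG, LDHA, LDHB, SLC16A3 and SLC16A7), with 12 start sites. Over all 35116 windows of this length in the table, 6.34% held CACGTG and 18.5% held ACGTG, the second count including the first since each CACGTG contains ACGTG on both strands. The stretches with matches at LDHA, at SLC16A3 and at BSG are printed because they place these letters in the gene that was lowest among them, in the one near detection and in the one that was higher. Capitals mark CACGTG, or ACGTG on either strand, and positions count from the start site.
LDHA first start, chr11:18394366-18394395, plus strand, 197 to 168 bases before: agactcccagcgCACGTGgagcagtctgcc
LDHA first start, chr11:18394468-18394497, plus strand, 95 to 66 bases before: ccgactcaCACGTGggttcccgCACGTccg
SLC16A3 second start, chr17:82228967-82228996, plus strand, 75 to 46 bases before: ggcggtgACGTGcgcgggggACGTGccgcg
BSG second start, chr19:572391-572420, plus strand, 205 to 176 bases before: gcaacgccgggtCACGTGcgccgccgcccg

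The first LDHA window thus held 2 copies of CACGTG and 1 further ACGTG, the second SLC16A3 window 2 copies of ACGTG, and the second BSG window 1 CACGTG. The other windows of LDHA, SLC16A3 and BSG held neither, nor did those of LDHB and SLC16A7. A further motif, the GC box GGGCGG, stood in 42.6% of all windows and in at least 1 window of BSG, LDHA, LDHB and SLC16A3. Most of these genes have more than 1 window, so genes with a match cannot be set against the share of windows. These matches are letters in a window and no evidence of binding, and counts per gene do not show which start site was used.

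The factors named above differed between the libraries at low levels. HIF1A, the oxygen-regulated subunit, had 2.01 FPKM with pccl and 0.262 with USP6, 7.66-fold lower (5.28 to 11.5). Its log2 ratio of -1.25 became -0.94, short of the limit, after centring on the GC trend described further on. MYC had 0.199 and 1.43 FPKM, from 22 and 160 counts, 7.15-fold higher (4.56 to 11.7), with a log2 ratio of 1.02. Centred in the same way, it was 0.82, also short of the limit. Of 10 listed MYC and HIF regulators 7 were expressed, of which 1 was lower, 1 higher and 5 neither, with a median log2 ratio of -0.19. Beside these counts, 11.4% of all expressed genes were lower and 13.7% higher. EGLN1, the prolyl hydroxylase that marks the HIF subunit for removal, had 9.44 and 5.38 FPKM.

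The ratios of the whole table followed GC content, and the set did so in part. Among classes of expressed genes by GC content of the longest transcript, the median log2 ratio went from -0.37 at 36.6% GC to 0.74 at 64.3% GC. The 5 lower genes of the set had 33.3% (SLC16A7), 37.0% (EMB), 43.5% (SLC16A1), 44.0% (LDHA) and 46.5% GC (LDHB), all under the median of 48.3%. BSG had 61.6%. Centred on a lowess trend with GC, the log2 ratio was -3.52 for SLC16A1, -2.45 for LDHA, -1.48 for EMB, -1.11 for SLC16A7 and -0.73 for LDHB. Thus 4 of the 6 were past the limit on the lower side, where 9.85% of all expressed genes lay after centring. That of BSG was 0.25, against 0.86 as deposited. SLC16A3, with 62.7% GC, had -0.27 after centring, against 0.39 before, both with a pseudocount of 1 FPKM that exceeds its level in either library.

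**Figure D4:**
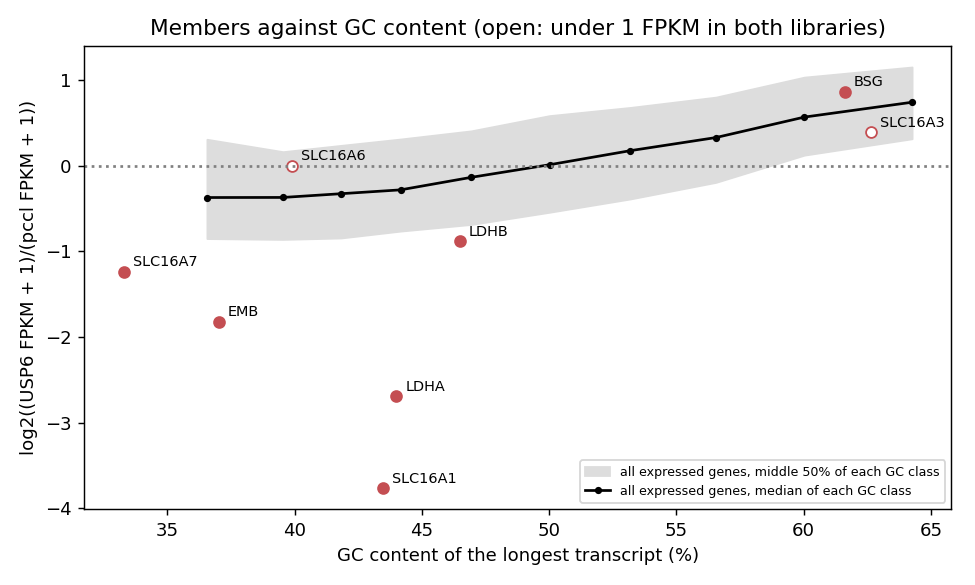
log2((USP6 FPKM + 1)/(pccl FPKM + 1)) of the 8 genes (red, open where under 1 FPKM in both libraries) against the GC content of the longest transcript. The black line and grey band give the median and the middle 50% of all expressed genes in 10 GC classes. SLC16A1, LDHA and EMB lie below the band, LDHB just below it, and BSG inside it. SLC16A7, at 33.3% GC, lies to the left of the band, which starts at 36.6% GC.

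Among the related genes, the rest of the SLC16 family was low or absent. Of its 10 other genes 2 were expressed, and neither passed the limit. At their levels, a log2 ratio as low as that of SLC16A1 could not be reached with a pseudocount of 1 FPKM. SLC16A10, a carrier of aromatic amino acids, had 2.05 and 0.757 FPKM, 2.71-fold lower (2.21 to 3.34). SLC16A9 had 0.661 and 1.99 FPKM, 3.02-fold higher (2.22 to 4.16). SLC16A8, SLC16A11 and SLC16A12 had 0 counts in both libraries, as did the sodium-coupled lactate carriers SLC5A8 and SLC5A12 and the lactate receptor HCAR1. Among 5 other genes of the dehydrogenase family none was expressed, and LDHD, which acts on D-lactate, had 1 and 10 counts.

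None of the 5 listed partners of BSG and EMB passed the limit. NPTN, the neuroplastin gene and the remaining relative of the chaperones, had 3.23 and 1.25 FPKM with a log2 ratio of -0.91. PPIA, the cyclophilin that binds basigin, had 75.2 and 43.7 FPKM. SLC3A2 and SLC7A5, whose proteins form an amino acid carrier found in complexes with basigin, had 5.52 and 9.45 FPKM and 103 and 111 FPKM. PPIA has many pseudogene copies, and its counts are uncertain.

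Genes that take pyruvate into mitochondria and oxidise it were lower or within the limits. Of 14 listed 9 were expressed, of which 2 were lower and 0 higher, with a median log2 ratio of -0.63. Over all expressed genes, 11.4% were lower and 13.7% higher. DLAT and DLD, components of the pyruvate dehydrogenase complex, were 3.18-fold (2.79 to 3.63) and 2.80-fold lower (2.35 to 3.35). PDHA1, the catalytic subunit of the same complex, had 15.6 FPKM with pccl and 23.9 with USP6. The subunits of the mitochondrial pyruvate carrier, MPC1 and MPC2, had 6.73 and 3.67 FPKM and 4.0 and 2.22 FPKM. After GC centring the log2 ratio of DLD was -0.72, short of the limit.

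Of 18 listed genes of glycolysis 15 were expressed, with 2 lower, 2 higher and a median log2 ratio of -0.40. The shares over all expressed genes were 11.4% lower and 13.7% higher. PGAM1 and PGK1, of the lower part of the pathway, were 4.88-fold (3.88 to 6.20) and 4.05-fold lower (3.67 to 4.48). PFKL, the liver-type phosphofructokinase, had 2.59 and 10.2 FPKM, and GAPDH 212 and 485 FPKM, both higher, with log2 ratios of 1.65 and 1.19. After GC centring these became 0.92 and 0.72, below the limit. PKM, which makes the pyruvate that LDHA uses, had 25.2 and 16.3 FPKM. GAPDH has many pseudogene copies, and its counts are uncertain.

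Of 7 listed genes of acid and bicarbonate handling, which deal with the proton exported beside lactate, 4 were expressed, 2 lower and 0 higher, with a median log2 ratio of -0.23. CA2, a cytosolic carbonic anhydrase, had 40.8 FPKM with pccl and 4.23 with USP6, 9.63-fold lower (8.19 to 11.4). SLC4A7, a bicarbonate importer, was 4.38-fold lower (3.52 to 5.50), and after GC centring its log2 ratio moved from -1.08 to -0.74. Over all the related lists, 7 of 42 expressed genes were lower and 3 were higher, beside 11.4% and 13.7% of all expressed genes. Their median log2 ratio was -0.45.

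**Figure D5:**
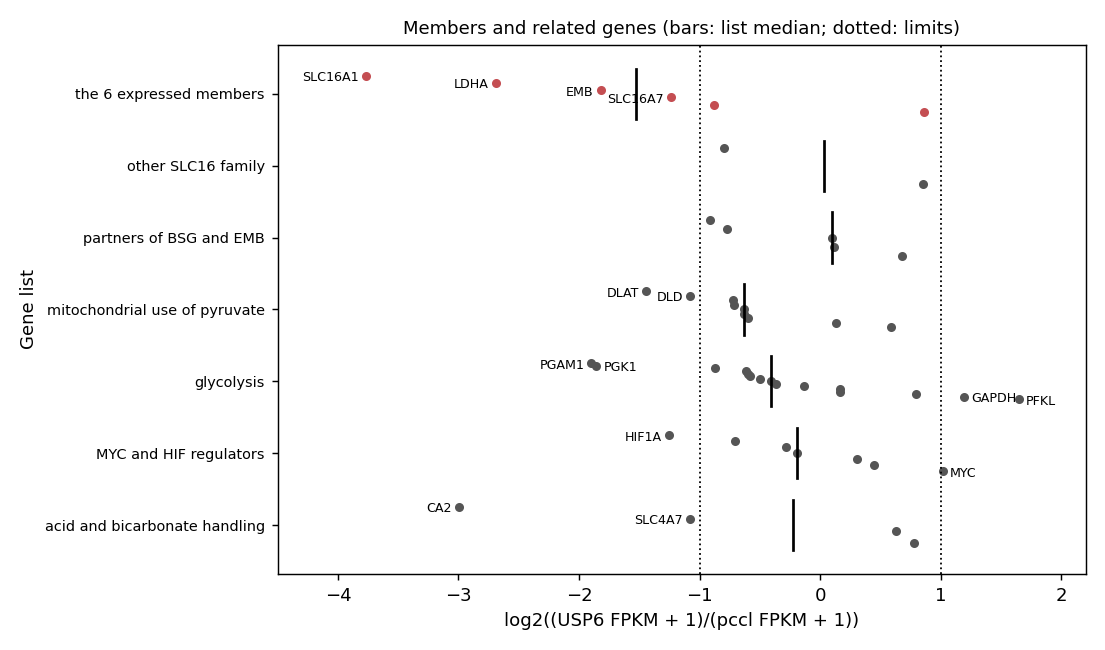
log2((USP6 FPKM + 1)/(pccl FPKM + 1)) of the 6 expressed genes of the set (red) and of the expressed genes of each related list (grey), with list medians as bars and names for genes past the dotted limits. CA2 (-3.0) is the lowest related gene and PFKL (1.65) the highest. Vertical spread within a list has no meaning.

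The genes most like SLC16A1 were sought among 819 expressed genes with a level in the pccl library within 1.5-fold of its own, by the distance in log2 ratio. With 2 libraries this likeness is a single number. The nearest 3 were AL137060.1 (-3.88, on 72 counts with pccl and 1 with USP6), GFI1 (-3.92) and HMGCS1 (-3.61). For LDHA they were YWHAB (-2.69), AC021078.1 (-2.70) and G3BP1 (-2.71), and for BSG they were C6orf62 (0.86), EIF3E (0.89) and CCDC85B (0.89).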

How the data were processed

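Each group is 1 RNA sequencing library. The counts and FPKM values per gene were deposited by the authors, and per the submitters' processing notes HISAT2 2.0.4, StringTie 1.3.3b and edgeR were used, with roles not given. Genome build, annotation and strandedness are not given in the sources used here. GENCODE release 29 lists 50111 of the identifiers, 94.9% of them at the same locus as the file. Coordinates are those of the file. The deposited FPKM equals the count per gene length and column total.

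Values of identifiers with 1 symbol were summed. The design leaves 0 residual degrees of freedom, so the counts were not tested. Differences are log2 ratios of FPKM with a pseudocount of 1, and folds are ratios without one. Exact 95% intervals come from the counts: conditional binomial (Clopper-Pearson) for folds and for ratios of 2 genes, conditional odds ratio for changes in them, Poisson for levels. Reads copied by PCR are not independent, so intervals may be too narrow. Named from each related list were up to 4 expressed genes past the limits; others named there were chosen after their values were seen. The 8 genes, the lists and the rules were chosen with earlier results of these data known, and 1 gene of the lists is not reported here. GC centring used lowess with span 0.3. Scaling factors came from edgeR 4.0.16 (trimmed mean of M values, upper quartile) and DESeq2 1.42.0 (median of ratios). The calls and intervals were tested on simulated data with counting error alone, which hold no differences between cultures. Intervals used SciPy 1.17.1 and the lowess fit statsmodels 0.14.6, under Python 3.11.15. The scalings ran under R 4.3.3.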

Additional observations from a re-analysis of the deposited data

How the results depend on the processing

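With 1 library per group, the limits are the missing replicates, the depth at SLC16A3 and SLC16A6, and the gene length behind each level. The count of 4 lower genes of the 6 expressed (11.4% of all expressed genes) was 3 of 6 with a pseudocount of 5 FPKM (2.96% of all), 3 of 5 with a filter of 5 FPKM (16.5%) and 5 of 6 with a limit of 1.5-fold (24.3%). It was 4 with the other 8 settings. The count of 0 higher genes became 1 (BSG) with the limit of 1.5-fold (27.7% of all), and stayed 0 with the other 10. Over 9 alternatives each, SLC16A1, SLC16A7, EMB, LDHA, LDHB and BSG kept their direction. The log2 ratio ranged from -5.09 to -2.12 for SLC16A1, from -3.19 to -1.69 for LDHA, from -1.93 to -1.48 for EMB and from -1.80 to -0.54 for SLC16A7. It ranged from -0.99 to -0.73 for LDHB and from 0.25 to 0.92 for BSG. At a pseudocount of 1 FPKM, SLC16A3 changed sign under GC centring. Its log2 ratio was 1.22 with a pseudocount of 0.1 FPKM and no centring. SLC16A6, with a log2 ratio near 0, kept its sign in 7 of the 9 alternatives. Scalings shifted log2 ratios without a pseudocount by -0.12 to 0.06, and those with a pseudocount by less.

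Of 42 related genes, 7 were lower and 3 higher. With a pseudocount of 0.1 FPKM 11 were lower and 5 higher (19.6% and 22.6% of all genes). With a filter of 5 FPKM 4 of 21 were lower and 2 higher (16.5% and 19.6%), and with a limit of 1.5-fold 20 of 42 were lower and 8 higher (24.3% and 27.7%).

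Lengths from the annotation were chosen after the data were seen. LDHA to LDHB was 1.69 (counts), 0.813 (merged exons) and 1.08 (longest transcript) in the pccl library, and 0.334, 0.161 and 0.213 in the USP6 library. BSG to EMB was 0.977, 1.35 and 1.95 in the pccl library, and 6.61, 9.16 and 13.2 in the USP6 library. SLC16A1 to SLC16A3 was 57.4, 97.1 and 63.3 in the pccl library, and 0.444, 0.753 and 0.491 in the USP6 library.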

Other observations

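For most genes the length behind the deposited FPKM matched the sum over distinct annotated exons. Of 9583 genes with at least 50 counts in the pccl library, the length that FPKM implies was within 1% of this sum in GENCODE release 29 for 87.2%. It was within 1% of the merged exon length for 8.72% and of the longest transcript for 8.35%. BSG was the exception in the set, with an implied length of 9744 bases and an exon sum of 8979. The median implied length was 2.19 times the longest transcript. For SLC16A3 the implied length was 17458 bases from 44 distinct exons, beside a longest transcript of 4830 bases, and for SLC16A1 it was 9189 beside 4374. Levels of different genes in FPKM thus depend on how many exon variants are annotated, while folds without a pseudocount are not affected. The log2 ratios with a pseudocount of 1 FPKM and the filter at 1 FPKM do depend on the length. Per kilobase of the longest transcript, SLC16A3 was at 0.622 with pccl and 1.93 with USP6, so it would count as expressed.

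Of 13 pseudogene copies of these genes and of SLC16A14 in the table, 7 had a count. Apart from EMBP1, the highest was LDHAP4 with 6 counts with pccl and 8 with USP6.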
